A study of Mus musculus with 12 samples.

Results

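The cytosolic ribosomal proteins are the proteins that, with ribosomal RNA, make up the large (Rpl genes) and small (Rps genes) subunits of the ribosome outside mitochondria. Members were chosen by symbol alone: protein-coding genes named Rpl or Rps with a number, with Rplp0 to Rplp2 and Rpsa, leaving out the Rps6k kinases and pseudogenes. The rule took 82 of the 43432 genes in the count table, 50 of the large subunit and 32 of the small subunit. Of these, 80 had enough counts to be tested. Rpl10l had 0 counts in every library, which at 3 counts allows at most 0.0857 to 0.206 CPM (counts scaled to a common, TMM-adjusted library total) depending on the library, for counting error only. Rpl3l stayed at 0 to 0.919 CPM.

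Poly-A selected RNA was sequenced from tumours grown from the mouse pancreatic cancer line CR705, with 6 samples labelled wild type (WT) and 6 labelled as knockouts of the aryl hydrocarbon receptor (AHRKO), a transcription factor activated by ligands. Both groups share the cell line, and no sample label names a compound, although other protocol texts of the series speak of cells in culture with test compounds. Whether the knockout line is 1 clone, and the strain, age and number of host animals, were not stated in the labels. Since no label ties the replicates to separate animals, each p measures only the spread between these samples.

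Library totals ran from 14772343 to 35881469 counts. Ahr, the targeted gene, had 101 to 125 CPM in WT and 62.5 to 143 CPM in AHRKO libraries (log2 fold change -0.13 ± 0.17 SE, adjusted p = 0.606), so its RNA level did not separate the groups, and group names below are those of the labels. A count over the whole gene does not show whether the protein is made. Summed pan-leukocyte markers were 397 to 748 CPM in WT and 630 to 3700 CPM in AHRKO libraries, and 13 of 14 rose. Summed ductal tumour markers were 3418 to 4805 CPM in WT and 691 to 4749 CPM in AHRKO libraries, and 0 of 7 passed the test in edgeR. AHRKO replicate 1 held both the highest leukocyte and the lowest ductal sum. Of 7 acinar markers only Cela1 had enough counts to be tested (21.1 ± 4.75 CPM in WT and 20.9 ± 14.8 CPM in AHRKO, SD, n = 6), and the summed acinar markers were 14.9 to 27.8 CPM in WT and 8.07 to 49.997 CPM in AHRKO libraries.

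Ribosomal protein genes lie scattered over the chromosomes, and most of their products are needed in equal numbers, 1 of each in a ribosome. Their mRNAs begin with a pyrimidine-rich stretch, the 5′ terminal oligopyrimidine (TOP) motif, through which the kinase complex mTORC1 and the RNA-binding protein LARP1 control their translation and stability. Tumours are known to depend on ribosome supply for growth, and loss of some single ribosomal protein genes causes Diamond-Blackfan anaemia.

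The starts of these genes are shown first because the TOP motif is the family's shared feature and was not used to choose members. RefSeq windows (GRCm38.p6, 250 bases before to 50 after the start) were found for 62 of the 82 members. Each line gives 70 bases, 5′ to 3′ on the gene's strand, 45 before the start and 25 from it. Capitals mark an unbroken run of at least 8 C or T touching the 25 bases either side of the start. The first set holds 4 of the called members with the smallest edgeR p, and the second holds members with the lowest fold changes. Rps19, taken for the first set by the same rule, is not printed and held no such run.
Rpl35a, chr16:33056437-33056506, plus strand: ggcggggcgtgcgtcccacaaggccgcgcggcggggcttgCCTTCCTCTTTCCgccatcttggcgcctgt
Rpl35, chr2:39005107-39005176, minus strand: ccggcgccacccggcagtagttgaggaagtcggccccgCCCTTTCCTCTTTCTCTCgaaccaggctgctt
Rps15a, chr7:118116123-118116192, minus strand: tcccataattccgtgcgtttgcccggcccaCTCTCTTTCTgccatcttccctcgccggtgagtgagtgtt
Rpl37, chr15:5116568-5116637, plus strand: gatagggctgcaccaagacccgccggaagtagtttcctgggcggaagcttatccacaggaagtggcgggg
Rpl14, chr9:120571472-120571541, plus strand: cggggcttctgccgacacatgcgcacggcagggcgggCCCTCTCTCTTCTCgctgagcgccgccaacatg
Rpl4, chr9:64173342-64173411, plus strand: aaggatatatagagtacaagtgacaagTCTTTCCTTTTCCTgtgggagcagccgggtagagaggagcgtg
Rpsa, chr9:120127721-120127790, plus strand: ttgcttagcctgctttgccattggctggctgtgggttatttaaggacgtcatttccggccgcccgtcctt

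Runs stood in both sets, and of the printed members Rpl37 and Rpsa, 1 from each set, held none near the start used. For Rpl37 that start (5116613) lies before the GENCODE gene start (5116645), which the printed bases do not reach. A run at the GENCODE start of Rpl37 thus lay outside the search. Of the 62 members with a window, 36 (58.1%) held such a run in at least 1 window, against 27.1% of all 27025 genes with a window. The run was held by 13 of 17 members that rose and by 23 of 45 others. Where a gene had several windows, as Rpl35a did, the one with the run nearest the start is printed. Searched on both strands over the whole window, CTTTCC was in 54.8% of members and 29.3% of all genes, and CCGGAAG, the core of an ETS factor motif, in 40.3% and 9.93%. AAGATGGC, a YY1-type core, was in 8.06% of members and 3.19% of all genes, and TATAAA in 9.68% and 15.7%. A match describes letters in the window and is not evidence of a bound factor.

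The family as a whole took a larger share of counts in most AHRKO libraries. In WT replicates 1 to 6 it took 4.36%, 4.17%, 4.29%, 4.19%, 3.59% and 4.30% of all counts. In AHRKO replicates 1 to 6 it took 3.37%, 4.70%, 6.27%, 7.21%, 4.63% and 4.69%. Thus 5 of 6 AHRKO libraries lay above every WT library, replicates 3 and 4 stood well above the other 4, and replicate 1 lay below every WT library. The means were 4.15% ± 0.286 (SD, n = 6) in WT and 5.15% ± 1.37 (SD, n = 6) in AHRKO, a difference of 0.994 percentage points that fell to 0.581 without AHRKO replicate 4. In bulk samples, fewer cells of a type and less RNA per cell cannot be told apart.

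**Figure D1:**
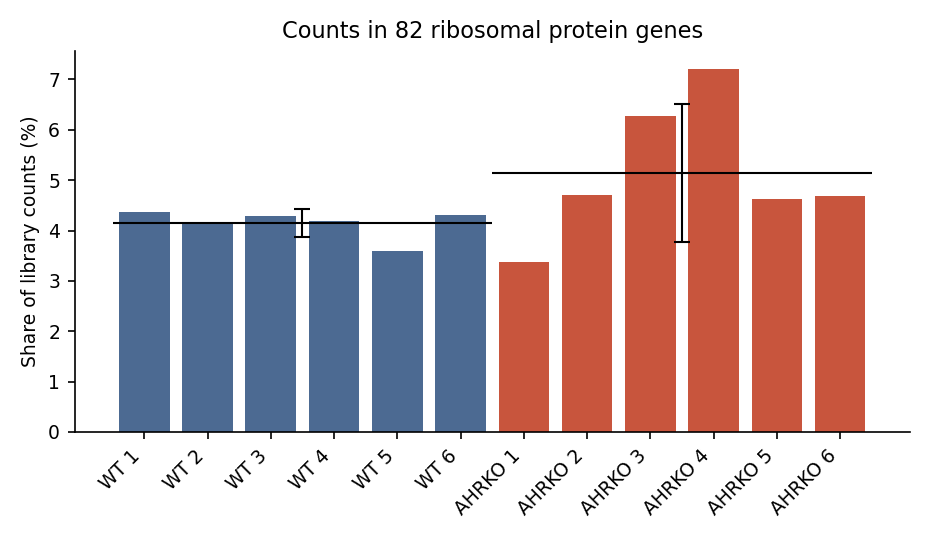
Share of library counts taken by the cytosolic ribosomal protein genes (percent, y axis) in each of the 6 WT and 6 AHRKO libraries, with group mean and SD. WT libraries sit between 3.59% and 4.36%, and AHRKO replicates 3 and 4 reach 6.27% and 7.21%.

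Gene by gene, 21 of the 80 tested members rose in AHRKO tumours, where 15.9% of all tested genes rose, and 0 fell, where 13.6% of all tested genes fell and 29.5% moved in either direction (edgeR quasi-likelihood test, Benjamini-Hochberg adjusted over 15449 genes, threshold 0.05). At an unadjusted edgeR p under 0.05, 36 members were higher and 0 lower. The share of all tested genes at this unadjusted limit was not counted. At the adjusted threshold, DESeq2 and limma-voom also called 0 members lower. The log2 fold changes of the members had a median of 0.35 and reached 0.84, against a median of 0.02 over all tested genes, and 78 of 80 were positive. They lay close together, with an SD of 0.18 against 0.78 over all tested genes. Related lists described below also lay closer than all genes. The SD was 0.17 for the list of TOP RNAs, 0.23 for nucleolar rRNA processing, 0.28 for mitochondrial ribosomal proteins and 0.35 for assembly and export. Such closeness is thus not particular to this family. Among large-subunit genes 14 of 48 rose (median 0.34), and among small-subunit genes 7 of 32 rose (median 0.39). The small subunit held 39.0% to 39.6% of the family's counts in WT libraries and 38.3% to 40.03% in AHRKO libraries. The mitochondrial ribosomal proteins, a separate set of nuclear genes, had 23 of 76 tested members that rose, 3 that fell and a median of 0.21. The difference between these families was not tested.

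The number of calls depended on single libraries, and the size of the rise on AHRKO replicates 3 and 4. In those libraries 78 members each lay above all 6 WT libraries, against 16, 33, 39 and 46 in AHRKO replicates 1, 2, 5 and 6. The median log2 ratio of the members to their WT mean was -0.11, 0.10, 0.65, 0.87, 0.15 and 0.19 in AHRKO replicates 1 to 6. In AHRKO replicate 1, 27 members lay below every WT library. The share of all genes outside the WT range was not counted for single libraries. With replicates 3 and 4 both left out, an alternative chosen after seeing the data, 6 members rose, 1 fell, and the median was 0.10, with 55 of 80 positive. In that fit 12.6% of all 15818 tested genes rose and 1624 fell, so the members' 6 of 80 is a smaller share than that of all genes. With 1 library left out, 8 members rose without WT replicate 5, 10 without WT replicate 4 and 13 without WT replicate 1, 2 or 6. The number was 12 without AHRKO replicate 3 or 4, and 44 without AHRKO replicate 1. Of all tested genes, 11.7% rose without WT replicate 5 or 4, and 12.7%, 13.6% and 12.2% without WT replicate 1, 2 and 6. The share was 14.4%, 13.6% and 19.1% without AHRKO replicate 3, 4 and 1. The members' 8 of 80 without WT replicate 5 is thus a smaller share than that of all genes. In the other fits named here the members' share was larger, but close to that of all genes without WT replicate 4 or AHRKO replicate 3 or 4. All members spread more widely among AHRKO than among WT libraries, for 80 of 80 tested, with a median SD of log2 CPM of 0.382 against 0.138. AHRKO libraries also differed more from each other over all genes. Chi-squared per degree of freedom was 28.1 to 262 for pairs of AHRKO and 12.6 to 70.5 for pairs of WT libraries. The share of all genes with a wider AHRKO spread was not counted. The summed pan-leukocyte markers were 3700, 1250, 985, 1317, 630 and 1147 CPM in AHRKO replicates 1 to 6. All but replicate 5 lay above every WT library, and replicate 3 lay below replicates 1, 2, 4 and 6. The part of leukocytes in the family's rise was not tested. The 10% of other protein-coding genes with the shortest mRNAs had a median log2 ratio of 0.14, 0.094, 0.25, 0.45, 0.041 and 0.0097 in AHRKO replicates 1 to 6, against -0.071 to 0.025 in WT libraries. The longest 10% had -0.22, -0.18, -0.25, -0.51, -0.076 and -0.061, against -0.091 to 0.064 in WT libraries. Short mRNAs were thus highest in replicates 3 and 4, and the shift also stood in replicate 1, where the family's share was lowest. The part of mRNA length in the family's rise was not tested. Across the 80 members, fold change and log2 mRNA length had r = -0.07, a description over genes of the same libraries. The lengths are those of 1 annotated transcript per gene, which need not be the one expressed (5179 bases for Rps15a, 3706 for Rps20).

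**Figure D2:**
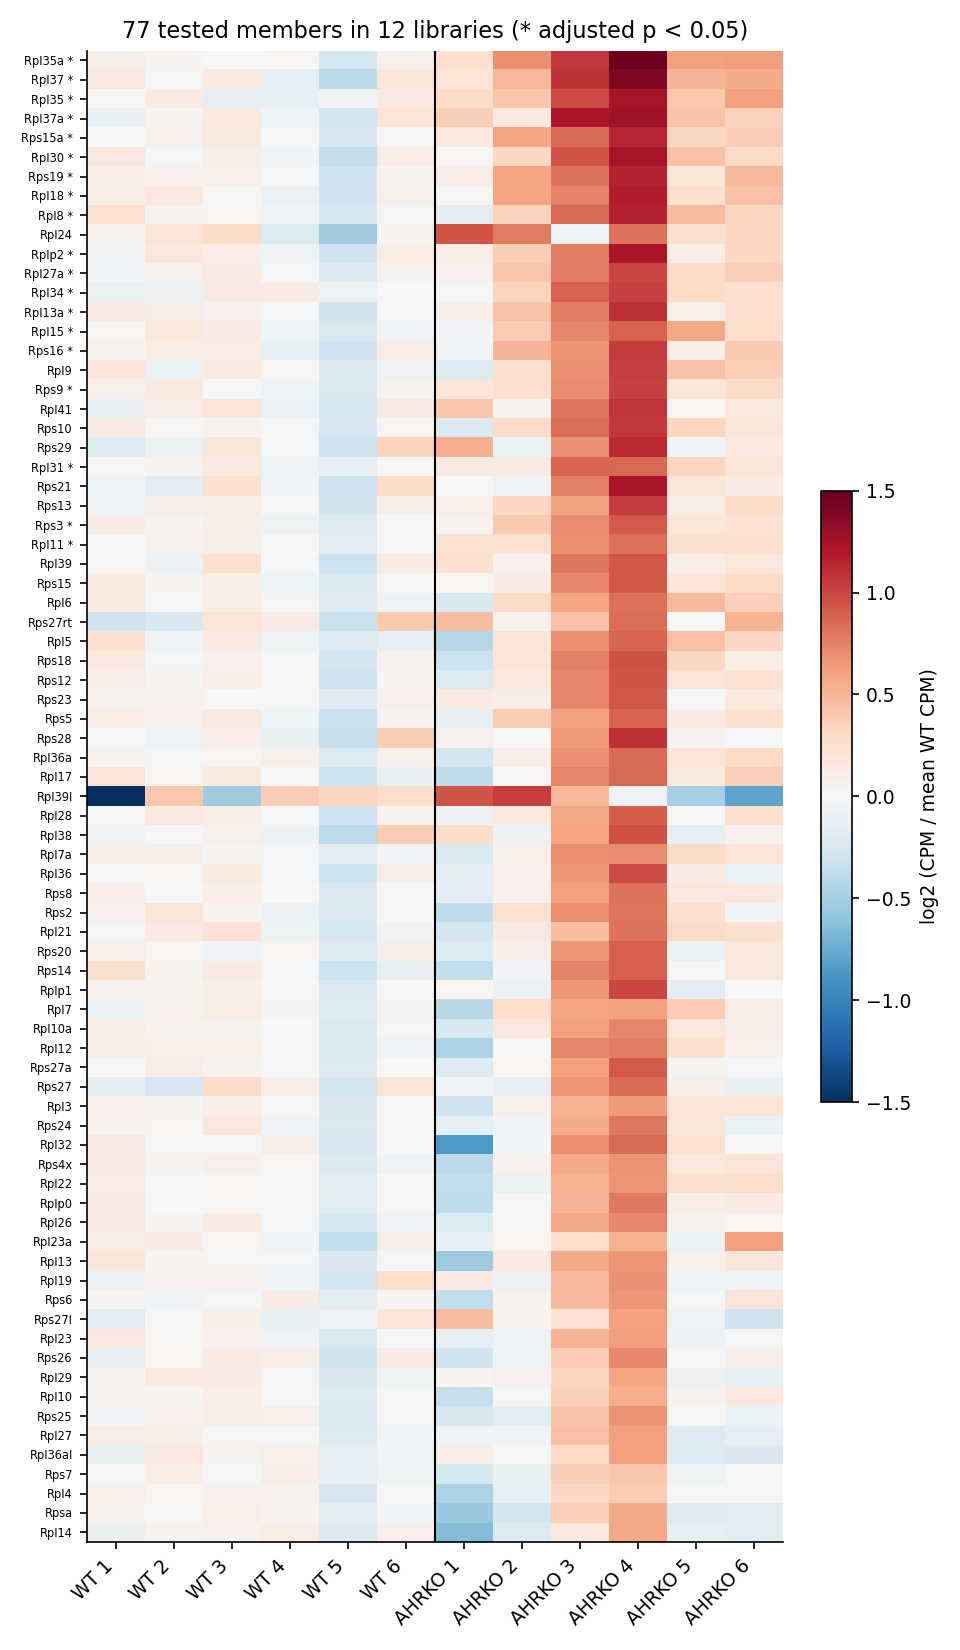
Log2 ratio of each tested member to its WT mean (colour) in the 12 libraries (columns), with 77 of the 80 tested members in rows. AHRKO replicates 3 and 4 are high across nearly the whole family, and replicate 1 is low for many members.

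Of the large subunit, Rpl35a rose most. Rpl35a (chromosome 16, 33056453 to 33060189, mm10), whose loss is a known cause of Diamond-Blackfan anaemia, had 203, 198, 192, 195, 160 and 202 CPM in WT replicates 1 to 6 and 228, 310, 400, 531, 294 and 296 CPM in AHRKO replicates 1 to 6. The groups did not overlap, and the log2 fold change was 0.84 ± 0.17 (SE, adjusted p = 0.00431). Rpl37 (chromosome 15, 5116645 to 5119140), a small zinc-binding protein of the large subunit, had 208, 184, 206, 170, 142 and 212 CPM in WT and 214, 263, 397, 495, 266 and 275 CPM in AHRKO libraries. Its lowest AHRKO library was just above its highest WT library, and its log2 fold change was 0.77 ± 0.19 (adjusted p = 0.0112). Rpl27a (chromosome 7, 109519147 to 109522367) rose from 461 ± 38.9 to 661 ± 164 CPM (SD, n = 6 each), a log2 fold change of 0.52 (edgeR adjusted p = 0.02). Without replicates 3 and 4 it was not called.

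Around the exit tunnel, through which the new protein leaves, 2 of 9 members rose, with a median of 0.25. Rpl35 (chromosome 2, 39001580 to 39005624), which sits at the tunnel rim where the signal recognition particle docks, had 22.1, 23.5, 19.6, 19.9, 20.7 and 23.7 CPM in WT and 26.4, 28.7, 42.7, 50.8, 28.7 and 33.1 CPM in AHRKO libraries. Every AHRKO library was above every WT library, with a log2 fold change of 0.70 ± 0.16 (adjusted p = 0.00665). Of its exon bases 68.3% overlap antisense genes, and since the strand setting of the counting is not given, reads of the partners cannot be told apart. Rpl31, with 40.04% of its exon bases under an antisense gene, rose by a log2 fold change of 0.46 (adjusted p = 0.0348) and was not called without AHRKO replicates 3 and 4 (0.20, adjusted p = 0.0911). Rpl4, which lines the tunnel, had 0.04 (adjusted p = 0.861), and -0.14 without those replicates.

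The 5S particle, which joins 5S RNA to the large subunit and when free binds the p53 regulator MDM2, is formed by Rpl5 and Rpl11. Rpl11 (chromosome 4, 136028265 to 136053428) had 296, 308, 312, 295, 259 and 295 CPM in WT and 343, 344, 478, 521, 348 and 347 CPM in AHRKO libraries, with no overlap and a log2 fold change of 0.43 ± 0.12 (adjusted p = 0.0196). Rpl5 had nearly the same log2 fold change, 0.41 ± 0.18, with a wider spread and an adjusted p of 0.113, and 46.6% of its exon bases overlap an antisense gene.

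The P stalk recruits elongation factors, and 1 of its 4 members rose. Rplp2 rose from 398 ± 46.6 to 580 ± 194 CPM (log2 fold change 0.54, adjusted p = 0.043), a call that was lost without AHRKO replicates 3 and 4 (0.24, adjusted p = 0.148). Without these replicates the log2 fold changes of Rplp0, Rplp1 and Rpl12 turned negative. Rplp0, the stalk's base, had 1672 to 2085 CPM in WT and 1456 to 3287 CPM in AHRKO libraries, Rplp1 had 774 to 961 and 807 to 1808 CPM, and both overlapped (log2 fold changes 0.24 and 0.30, adjusted p = 0.305 and 0.258). Rpl12, beside the stalk, had 0.29 (adjusted p = 0.263).

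In the small subunit, Rps15a and Rps19 were among the members with the smallest p. Rps15a (chromosome 7, 118104372 to 118116188) had 272, 287, 301, 274, 229 and 272 CPM in WT and 303, 411, 491, 601, 337 and 353 CPM in AHRKO libraries, with no overlap and a log2 fold change of 0.61 ± 0.16 (adjusted p = 0.012). Rps19 (chromosome 7, 24884371 to 24889806), the gene most often mutated in Diamond-Blackfan anaemia, had 445, 431, 434, 405, 335 and 429 CPM in WT and 446, 621, 724, 916, 470 and 579 CPM in AHRKO libraries. Its lowest AHRKO value was level with its highest WT value, and its log2 fold change was 0.60 ± 0.16 (adjusted p = 0.0168). Without AHRKO replicates 3 and 4 it was 0.36 (edgeR adjusted p = 0.0553). Along the mRNA path and at the decoding centre 1 of 8 members rose, Rps3 (log2 fold change 0.44, adjusted p = 0.0371), which was not called without those replicates (0.22, adjusted p = 0.13). Rps6, the target of the S6 kinases, and Rps27a, made as a fusion with ubiquitin, had 0.21 and 0.29 (adjusted p = 0.324 and 0.236), and -0.013 and -0.028 without those replicates.

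**Figure D3:**
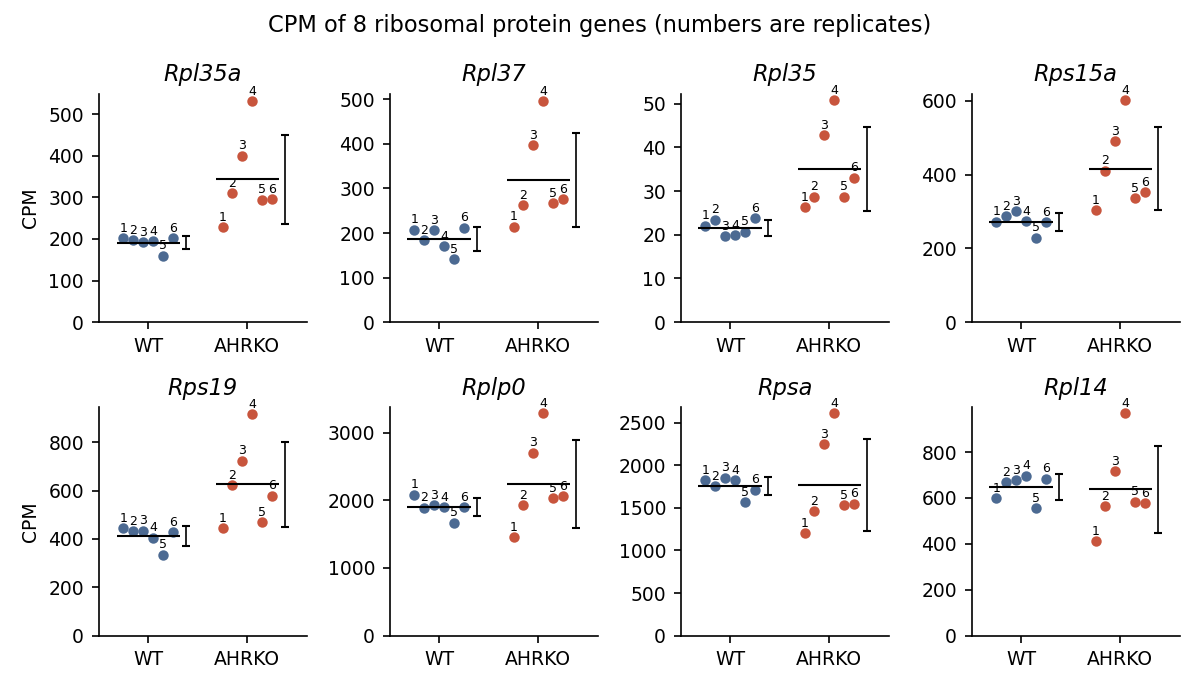
CPM of single members in each WT and AHRKO library, with group means and SD. Rpl35a shows no overlap (160 to 203 against 228 to 531 CPM), while Rpl14 overlaps (555 to 697 against 411 to 968 CPM).

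Besides the members described so far, Rpl8, Rpl13a, Rpl15, Rpl18, Rpl30, Rpl34 and Rpl37a of the large subunit and Rps9 and Rps16 of the small subunit rose, with log2 fold changes from 0.48 (Rps9) to 0.69 (Rpl37a). None of these was called by edgeR without AHRKO replicates 3 and 4. Of the exon bases of Rpl30 57.4% overlap an antisense gene, and of those of Rpl13a 59.3% overlap genes on the same strand. The members just inside the threshold were Rplp2 and Rpl13a (adjusted p = 0.043 and 0.0464), and just outside were Rps13 and Rpl6 (0.0503 and 0.0516). In CPM, 7 members had AHRKO libraries all above WT (Rpl11, Rpl35, Rpl35a, Rpl37, Rps9, Rps15a and Rps19) and 0 had them all below, beside 6.03% and 7.35% of all tested genes. Rpl35, Rpl35a, Rpl37 and Rps15a were called higher in the edgeR fit above and under all of the alternatives run.

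Only 2 tested members had a negative log2 fold change. Of these, Rpl14 (chromosome 9, 120571444 to 120574654) had 555 to 697 CPM in WT and 411 to 968 CPM in AHRKO libraries (log2 fold change -0.02, adjusted p = 0.937), and its sign turned when AHRKO replicate 1, 2, 5 or 6 was left out.

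Set against the family's own sum, the balance of members differed between the groups in every library for some genes. Rpl35a made up 0.438% to 0.483% of the family's counts in WT and 0.630% to 0.720% in AHRKO libraries. Rpl14 made up 1.37% to 1.68% in WT and 1.13% to 1.31% in AHRKO libraries, replicates 3 and 4 included. On this scale 7 members lay above WT in all AHRKO libraries (among them Rpl27a, Rpl30, Rpl35, Rpl35a, Rpl37 and Rps15a), beside 1.36% of all tested genes, and 4 lay below (among them Rpl4, Rpl14 and Rpsa), beside 8.51%. Rpsa, also known as the laminin receptor precursor, went from a mean of 4.25% to 3.39% of the family, with 1757 ± 108 and 1767 ± 542 CPM and a log2 fold change of -0.29 without AHRKO replicates 3 and 4. A share of a sum rises for some members when it falls for others. The sum was larger in most AHRKO libraries, and dividing by it lowers genes outside the family there. The 1.36% and 8.51% of all tested genes are therefore no neutral background for the members.

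The members' fold changes varied with their chromosome. On chromosome 7, 11 of 14 members rose (median 0.50), and of the other tested genes there 283 of 1150 rose (median 0.20). On chromosome 15, 3 of 4 members rose (0.58), and 174 of 600 others (0.22). On chromosome 9, 0 of 8 members rose (0.15), and 68 of 874 others (-0.11). On chromosome 11, 0 of 7 members rose (0.23), and 139 of 1270 others (-0.08). Chromosomes 5 and 17 had other genes with medians of 0.15 and 0.12, of which 247 of 957 and 145 of 748 rose. There 0 of 5 and 0 of 6 members rose. Over the 80 members, the fold change and the median of the other genes of the same chromosome had a Pearson r of 0.674 and a Spearman rho of 0.688, a description over genes that share their 12 libraries. With limits chosen after seeing the values, 15 of 32 members rose on chromosomes whose other genes had a median above 0.1. Where that median was below -0.05, 0 of 26 members rose. The members' median log2 fold changes were 0.48 and 0.22. Of those 15 members, 11 lay on chromosome 7. The share of other genes that rose was not counted for these classes as a whole. The members' medians in these classes differed by 0.23, 0.37, 0.23, 0.35, 0.27 and 0.29 in AHRKO replicates 1 to 6. The gap thus stood in the libraries with a low family share as well. Without replicates 3 and 4 the members' medians were 0.23 and -0.02. In each case the classes were those set by the fit of all 12 libraries, replicates 3 and 4 included. DNA copy number was not analysed here.

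**Figure D4:**
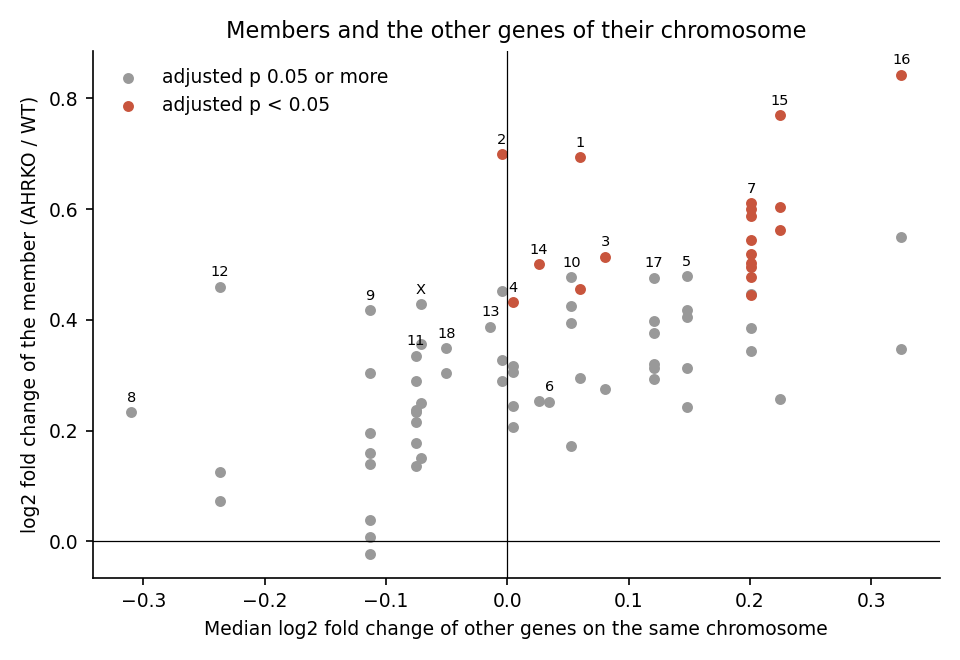
Log2 fold change of each tested member (y axis) against the median log2 fold change of the other tested genes on its chromosome (x axis). Members on chromosome 7 range from 0.34 to 0.61 and those on chromosome 9 from -0.02 to 0.42, so the chromosomes overlap (77 of the 80 tested members are plotted).

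Rplp1, of the P stalk, had the highest level per length. In CPM per kilobase of the chosen transcript, WT means were 1815 for Rplp1, 1694 for Rpl13, 1652 for Rpl32, 1397 for Rplp0 and 1365 for Rps2, and AHRKO means were 2239, 1991, 1968, 1653 and 1695. None of these 5 passed the edgeR test. The lowest levels above 0 were Rpl3l (0.157), Rpl24 (0.956) and Rpl39l (2.61). Rpl24 had 9 to 26 counts in a library, and 71.5% of its exon bases overlap Gm28037 on the same strand, so its level is uncertain. The 257 ribosomal protein pseudogenes in the table held counts equal to 1.75% to 2.25% of the family's in WT and 1.09% to 2.50% in AHRKO libraries, and reads of near-identical copies may be split between them.

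**Figure D5:**
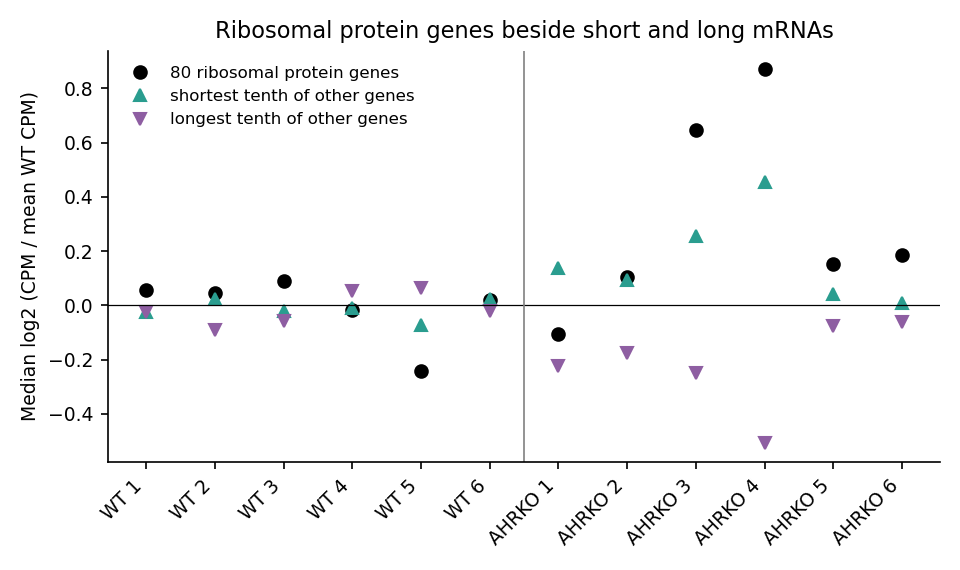
Median log2 ratio to the WT mean by library for members and for other protein-coding genes with the shortest and longest mRNAs. In AHRKO replicate 4 the members reach 0.87, the shortest 10% reach 0.45 and the longest 10% fall to -0.51.

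The subunit paralogues, close copies of a base gene, stayed below their base genes in WT CPM per kilobase. Rpl36al had 171 against 317 for Rpl36a, Rps27l had 98.8 against 583 for Rps27, and Rpl39l had 2.61 against 236 for Rpl39. Of the exon bases of Rpl36al 63.1% overlap a gene on the same strand. Of the 3 that could be tested, 0 were called by edgeR (log2 fold changes 0.13, 0.20 and 0.35, adjusted p = 0.513, 0.324 and 0.562). Rpl3l, known from heart and skeletal muscle, had 19 counts in AHRKO replicate 2 and at most 6 in any other library. The summed skeletal muscle markers were 332 CPM in that library and 6.98 to 22.0 CPM in WT libraries. The part of muscle tissue in that value was not tested.

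Beyond the symbol rule, 6 further subunit genes included Rpl22l1, a paralogue of Rpl22, which rose from 8.72 ± 0.981 to 12.8 ± 2.50 CPM (log2 fold change 0.55, edgeR adjusted p = 0.0154). Rack1, Fau, Rps3a1 and Rpl7l1 had log2 fold changes of 0.23, 0.19, 0.00 and 0.15 and were not called. In a list of translation factors and other genes with TOP RNAs (such as Hnrnpa1, Nap1l1 and the non-coding Gas5), 1 of 19 tested rose. This was Eif3k (0.39, edgeR adjusted p = 0.0251), and the list had a median of 0.21. The counts for the genes that make ribosomes are to be read beside the 15.9% of all tested genes that rose and the 13.6% that fell. In nucleolar rRNA processing 9 of 38 rose and 1 fell (median 0.10), with Rrs1 at 0.60 (adjusted p = 0.00299) and Utp4 at -0.56 (adjusted p = 0.0035). Of RNA polymerase I genes, 1 of 14 rose (Znrd1, 0.54) and 1 fell (Taf1c, -0.44), with a median of -0.01.

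In assembly and export, 2 of 20 rose and 4 fell (median -0.15). Las1l, which acts in the processing of the spacer between rRNAs, fell from 164 ± 32.9 to 72.7 ± 15.4 CPM, with 136 to 228 CPM in WT and 50.1 to 91.3 CPM in AHRKO libraries (log2 fold change -1.17, edgeR adjusted p = 0.000526). Eif6, which keeps the subunits apart, rose by a log2 fold change of 0.42 (adjusted p = 0.0146). Of the chaperones dedicated to ribosomal proteins, 3 of 6 rose and Heatr3, which serves Rpl5, fell (-0.57, edgeR adjusted p = 0.00179). Heatr3 and Utp4 lie on chromosome 8, where 330 of 824 tested genes outside the family fell (median -0.31). The part of the chromosome in these changes was not tested. In mTORC1, LARP1 and MYC control 3 of 18 rose and 4 fell. Tsc2, an inhibitor of the pathway, fell (-0.47, adjusted p = 0.00421), as did Rptor, a subunit of mTORC1 (-0.40, adjusted p = 0.0074), and Akt1s1, an inhibitory subunit, rose (0.40, adjusted p = 0.00756). In ribosome rescue and quality control 2 of 10 rose and 4 fell, among them the recycling factor Abce1 (-0.53, adjusted p = 0.00131). Without AHRKO replicates 3 and 4, 4 genes of nucleolar rRNA processing rose and 1 fell, 1 of assembly and export rose and 4 fell, and 0 of the further subunit genes passed the edgeR test.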

How the data were processed

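Gene counts from 12 tumour samples were used as deposited. Per the submitters' processing notes, the tools were HISAT2, SAMtools, HTSeq and DESeq2 with build mm10, with no versions, and the annotation and strand setting are not given in the sources used. The deposited values are raw counts per gene, and every value was checked to be whole. Symbols, coordinates and mRNA lengths came from GENCODE M21 by identifier. The length is that of 1 principal coding transcript per gene, which need not be the one expressed, so CPM per kilobase is approximate.

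Genes were kept with filterByExpr (15449 of 43432), scaled by TMM and compared with the two-sided quasi-likelihood test of edgeR, Benjamini-Hochberg adjusted over all tested genes at 0.05, with all 12 samples and no covariate. CPM uses TMM-scaled totals. The software was edgeR 4.0.16, DESeq2 1.42.0 and limma 3.58.1 under R 4.3.3. The fits were tested on simulated data. Library totals of 14772343 to 35881469 counts limit counting error only. No pair of libraries agreed within sampling noise (lowest chi-squared per degree of freedom 12.6).

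Named members were the 8 with the smallest p in each direction (only 2 were negative), the 5 highest and 3 lowest per length, paralogues with their base genes, and the P stalk. Some genes that these rules take are not reported here. From each pathway list up to 3 genes with the smallest p were taken, and other named genes were chosen after their values were seen. Members and lists were chosen with earlier results of these data known. Alternatives were DESeq2, limma-voom with quality weights, other scalings and filters, a replicate block and leaving out samples.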

Additional observations from a re-analysis of the deposited data

Results flagged for a closer look

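WT replicate 5 lay far below the other 5 WT libraries in 7 of 60 groups of values checked, each by a gap above Dixon's critical value for 6 samples. Chance sets apart about 1 in 20 such groups, and the 7 share 1 library, so they are not independent. Its family share was 3.59% of counts. It had 160 CPM of Rpl35a, 335 CPM of Rps19, 259 CPM of Rpl11, 774 CPM of Rplp1, 765 CPM of Rpl3 and 825 CPM of Rpl10. Without this library 8 members rose in place of 21, and 11.7% of all tested genes rose.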

How the results depend on the processing

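The number of members that rose, 21 in the edgeR fit, was 28 with DESeq2 and 41 with limma-voom and quality weights. It was 23 with RLE scaling, 18 with upper-quartile scaling, 21 with library totals, 11 with no filter and 23 with a stricter filter. Of all tested genes, 19.5%, 19.9%, 16.2%, 14.8%, 15.1%, 7.43% and 16.9% rose in these fits, in the same order. The number of members that rose ran from 8 (without WT replicate 5) to 44 (without AHRKO replicate 1) when 1 library was left out. It was 13 without WT replicate 1, 2 or 6, 10 without WT replicate 4 and 12 without AHRKO replicate 3 or 4, and the number that fell was 0 in each of these. With AHRKO replicates 3 and 4 both left out, an alternative chosen after seeing the data, 6 rose and 1 fell, where 1995 (12.6%) and 1624 of all 15818 tested genes did. Over all genes, leaving out 1 library gave 1822 to 2980 that rose and 1632 to 2778 that fell. The median log2 fold change ran from 0.23 (without AHRKO replicate 4) to 0.42 (without AHRKO replicate 1), and the difference in family share from 0.581 to 1.35 percentage points for the same libraries. Same-numbered samples of the groups did not deviate together (correlations from -0.490 to 0.012). With the replicate number as a block 7 members rose and 0 fell, with 1114 (7.21%) and 1240 over all tested genes. Rpl14 ran from -0.18 (without AHRKO replicate 4) to 0.077, and turned to 0.077, 0.012, 0.0017 and 0.0056 without AHRKO replicate 1, 2, 5 and 6. Without AHRKO replicates 3 and 4, log2 fold changes turned to -0.052 for Rplp1, -0.00046 for Rpl13, -0.11 for Rpl32, -0.016 for Rplp0, -0.072 for Rpl36al, -0.022 for Rpl10, -0.043 for Rps27, -0.0079 for Rpl12, -0.14 for Rpl4, -0.013 for Rps6, -0.028 for Rps27a and -0.29 for Rpsa. The cause was not tested. Depth limits Rpl24, Rpl3l and Rpl10l, with at most 26, 19 and 0 counts in a library.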

Other observations

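Outside the family, the tested genes whose log2 CPM followed the log2 of the family sum most closely over the 12 libraries were Cox7a2l (r = 0.978), Naca (0.972), Hprt (0.966), Zfas1 (0.966) and Nars (0.965), given as a description. Naca encodes a subunit of the complex that meets new proteins at the ribosome, and Zfas1 is a non-coding host of small nucleolar RNAs. Of these 5, Zfas1 rose (log2 fold change 0.54, edgeR adjusted p = 0.0399). Among the members, 54 of 80 had r above 0.9 with the sum of the rest of the family. The lowest were Rpl39l (-0.108), Rpl24 (0.255) and Rps27l (0.436). In 29 members a small nucleolar RNA gene lies inside the gene, 56 such genes in all, and 8 of the members that rose are among these hosts.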
